A study of Mus musculus with 8 samples.

Results

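The 10 genes described here encode secreted factors that act on blood vessels, and they were selected by symbol from the 54838 genes of the expression files. They were Vegfa, Vegfb, Vegfc and Pgf, Angpt1 and Angpt2, Angptl2 and Angptl4, Thbs1 and Vash2. Each symbol matched exactly 1 gene. RNA-seq profiled cultured mouse hepatocellular carcinoma cells. The 3H3PM group comprised 7 subclones, numbered 1, 2, 3, 6, 7, 8 and 9, with 1 library each, and the 3H3P group comprised 1 library. All cells derive from 3H3, a line from a liver tumour of a C57BL/6 MC4R-KO mouse on high-fat diet, with an HrasQ61L mutation. In all of them Trp53 was knocked out with CRISPR/Cas9, and 3H3PM cells in addition express MYC ectopically, per the labels. The 3H3PM subclones were isolated from tumours that these cells formed in nude mice and were then cultured, so the ectopic MYC, growth in an animal and subcloning cannot be told apart. Whether 3H3P is a clone or a pool is not stated in the labels.

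The VEGF ligands bind receptor tyrosine kinases on endothelial cells. VEGF-A acts mainly through VEGFR2 and drives the sprouting of blood vessels, VEGF-B and placental growth factor bind VEGFR1, and VEGF-C binds VEGFR3 and drives lymphatic growth. Angiopoietins 1 and 2 are ligands of the receptor TIE2: angiopoietin 1 activates it and stabilises vessels, and angiopoietin 2 mostly opposes it. Angiopoietin-like proteins share the fold but do not bind TIE2. Thrombospondin 1 is an endogenous inhibitor of angiogenesis, and vasohibin 2 has been described as promoting it. Liver tumours are rich in vessels, and VEGF-A signalling is a drug target in hepatocellular carcinoma.

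Library totals ran from 12838521 to 17987068 expected counts in the subclones, against 16855985 in 3H3P. The targeted gene Trp53 was at 53.9 ± 7.45 CPM (TMM-scaled count per library total) in the subclones (SD, n = 7) and 212 CPM in 3H3P, and counts do not check a frameshift knockout. Mouse Myc was at 6.54 ± 3.58 CPM in the subclones and 85.2 CPM in 3H3P, and these counts do not show the ectopic MYC, whose species the labels do not give. The labelled cell type was weakly marked in the subclones: 17 hepatocyte markers summed to 61.4 to 189 TPM (the deposited length-scaled level) there and to 2105 TPM in 3H3P. The sum in 3H3P was mostly Krt18 (785 TPM), Trf (725 TPM) and Krt8 (431 TPM), and Krt18 averaged 87.1 TPM in the subclones. Apob and Hnf4a were at 97.45 and 38 TPM in 3H3P and at 0.363 and 0.641 TPM in the subclones (edgeR adjusted p = 0.000968 and 0.00462). Alb had 2.79 TPM in 3H3P, where Apoa1, Ahsg and Cps1 were at 0. Afp went the other way, at 1.59 TPM in the subclones and 0.25 TPM in 3H3P, without passing the test (adjusted p = 0.408). Of 17 endothelial markers, Cdh5, Tie1, Emcn, Cldn5, Robo4, Lyve1 and Clec4g were at 0 counts in every subclone, and the list summed to 28.3 to 37.8 TPM in the subclones and 29.1 TPM in 3H3P. Egfl7, the most abundant of them in the subclones, averaged 26.6 TPM there and had 4.01 TPM in 3H3P (adjusted p = 0.0166), while Flt4 held 16.9 TPM of the sum in 3H3P. The 13 lymphocyte markers summed to at most 0.030 TPM in the subclones and to 0 in 3H3P. The 14 macrophage markers summed to 37.7 to 127 TPM in the subclones and 367 TPM in 3H3P, mostly Cd14. In 3H3P 8 of the 14 were at 0, Adgre1 and Ptprc among them. The 6 detected there included Csf1r (185 counts), Mrc1 (84 counts) and Cd68 (44 counts). The 16 fibroblast and stellate markers summed to 31.2 to 140.4 TPM in the subclones and 108 TPM in 3H3P, with Lum, Thy1, Lrat and Dpt at 0 in every subclone. Among these, Dcn had 1 count over all subclones and 1868 counts in 3H3P (adjusted p = 4.23e-06), and Pdgfrb had 12171 counts over the subclones and 12 in 3H3P (adjusted p = 6.57e-05). Dcn passed the filter on low counts only through 3H3P, so its call follows in part from the filter. In bulk libraries fewer cells of a type and less RNA per cell cannot be told apart.

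Of the 10 genes, 6 had an entry in the table of RefSeq promoters (GRCm38.p6). The 250 bases before the start site are shown for 3 of the genes that differed between the groups and have an entry, Angptl2, Vash2 and Vegfc, and for Vegfa, which varied widely over the subclones. The sequences run 5′ to 3′ on the gene's strand and end at the base before the start site, and capitals mark GC boxes.
Angptl2 (chr2:33215711-33215960, plus strand): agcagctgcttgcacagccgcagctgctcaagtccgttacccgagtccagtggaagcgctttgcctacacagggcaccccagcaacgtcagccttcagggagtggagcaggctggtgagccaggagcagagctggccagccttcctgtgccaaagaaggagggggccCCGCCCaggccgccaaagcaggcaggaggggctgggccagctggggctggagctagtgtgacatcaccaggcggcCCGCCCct
Vash2 (chr1:190979297-190979546, minus strand): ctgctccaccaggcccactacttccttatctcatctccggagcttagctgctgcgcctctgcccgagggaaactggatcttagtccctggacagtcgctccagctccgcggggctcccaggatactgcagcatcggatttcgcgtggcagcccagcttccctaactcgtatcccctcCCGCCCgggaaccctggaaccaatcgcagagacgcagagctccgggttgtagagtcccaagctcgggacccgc
Vegfc (chr8:54077282-54077531, plus strand): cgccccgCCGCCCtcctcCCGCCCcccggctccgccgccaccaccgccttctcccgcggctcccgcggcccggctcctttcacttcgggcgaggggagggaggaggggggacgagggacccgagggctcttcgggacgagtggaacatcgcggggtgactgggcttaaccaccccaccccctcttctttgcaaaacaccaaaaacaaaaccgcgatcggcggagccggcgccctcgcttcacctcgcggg
Vegfa (chr17:46032378-46032627, minus strand): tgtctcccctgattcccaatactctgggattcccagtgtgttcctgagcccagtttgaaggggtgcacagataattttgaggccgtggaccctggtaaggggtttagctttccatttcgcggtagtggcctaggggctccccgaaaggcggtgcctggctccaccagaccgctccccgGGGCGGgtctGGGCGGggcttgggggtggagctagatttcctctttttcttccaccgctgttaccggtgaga
Each motif was searched on both strands. The GC box was read as GGGCGG. The core of hypoxia response elements was read as ACGTG. The E-box that MYC binds was read as CACGTG, which contains the hypoxia core. The TATA box was read as TATAAA. The AP-1 motif was read as TGANTCA. Of these motifs the 4 windows held only GC boxes: Vash2 had 1, and Angptl2, Vegfc and Vegfa had 2 each. A GC box was found in 32.7% of 32851 windows of the same length, the hypoxia core in 16.6%, the E-box in 6.02%, the TATA box in 12.4% and the AP-1 motif in 6.75%. The GC content was 66.8% for Angptl2, 62.8% for Vash2, 71.6% for Vegfc and 59.2% for Vegfa, against a median of 52.4% over all windows. The ratio of observed to expected CpG was 0.32 for Angptl2 and 0.96 for Vegfc, with a median of 0.37 over all windows. Vegfa and Vash2 each have a further listed start site, whose window holds the hypoxia core for Vegfa and the AP-1 motif for Vash2. Both of these windows lie inside the annotated gene. That of Vegfa is at chr17:46025164-46025413, in a gene that spans 46016993 to 46032369. Whether either start site is used in these cells was not tested.

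The subclones were compared with 3H3P, the comparison that the series names. Of the 10 genes, 3 rose in the subclones, Angptl2, Thbs1 and Vash2, and Vegfc fell. Vegfa, Vegfb, Pgf, Angpt1, Angpt2 and Angptl4 did not pass the test. By edgeR's quasi-likelihood test 4 of 10 genes were called at an adjusted p under 0.05, against 19.1% of the 14634 genes tested. Higher in the subclones were 3 of the 10, against 7.33% of all genes, and lower was 1 of 10, against 11.8%. Under other settings the share of all genes called was 21.5% by DESeq2, 21.8% by limma-voom, 19.7% at a mean of 1 CPM or more, 19.4% with library size alone, 15.9% and 16.2% on log2(TPM + 0.1) and log2(TPM + 1), and 11% without a filter. Without 1 subclone the share was 20.2%, 17.9%, 13.8%, 15.3%, 17.3%, 20.5% and 16.6%, leaving out subclones 1, 2, 3, 6, 7, 8 and 9 in turn. The 3H3P library lay outside the range of the subclones for 8 of the 10 genes, against 57.4% of all genes. It lay below all 7 subclones for 3 genes, where 27.1% of all genes did so, and above all 7 for 5 genes, where 30.4% did so. For Vegfa and Angpt1 it lay within the range of the subclones. The median log2 fold change was −0.28 over the 10 genes and 0.03 over all genes tested. All 10 genes passed the filter on low counts. Angptl2 passed it in the subclones and not in 3H3P, so its difference follows in part from having passed. The comparison rests on 1 library of 3H3P, whose own variation could not be measured and was assumed to equal that of the subclones.

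**Figure D1:**
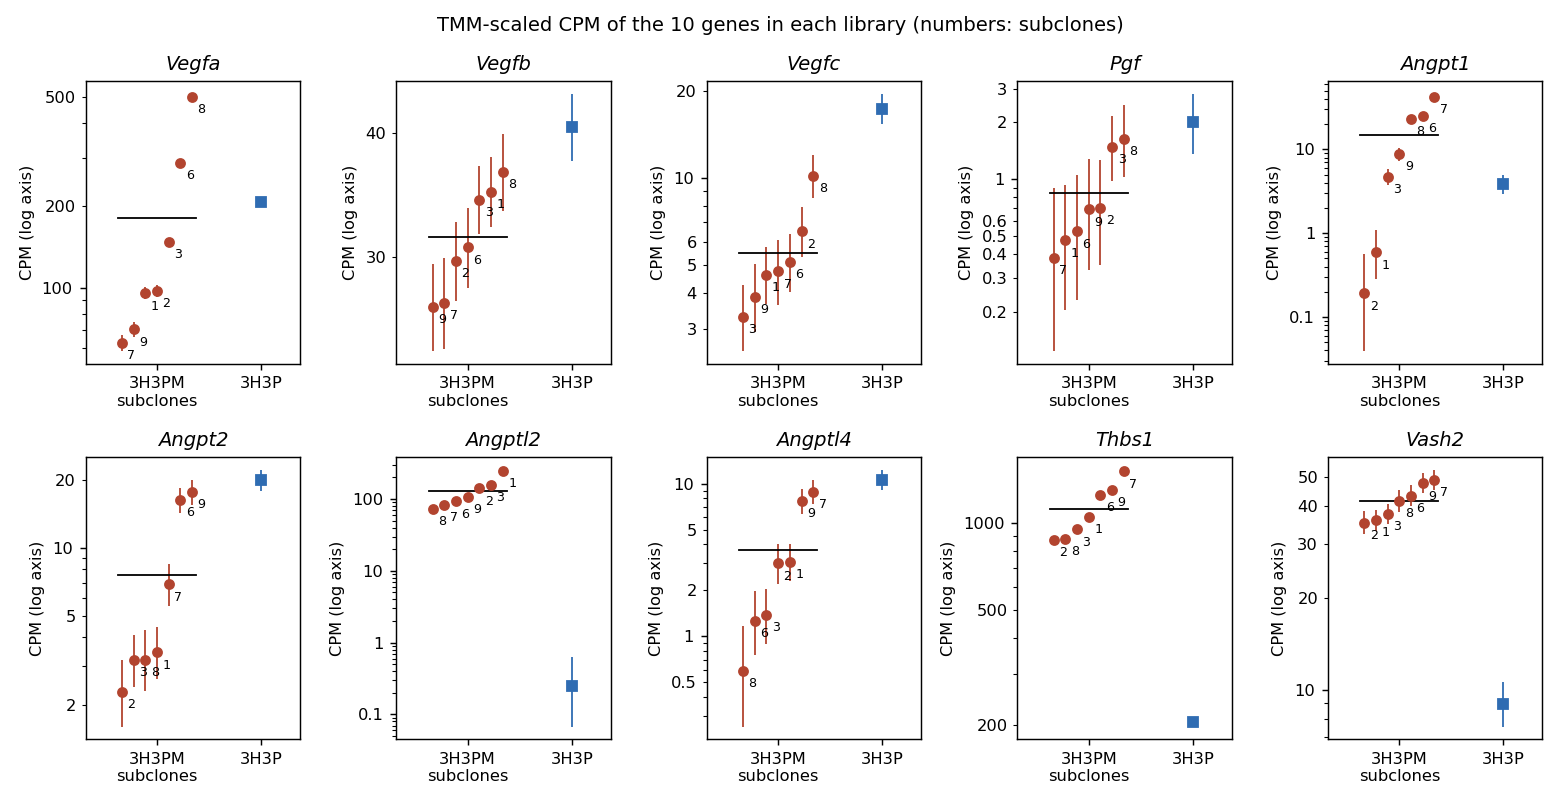
TMM-scaled CPM on a log axis for each gene in the 7 3H3PM subclones (circles in ascending order, numbered at their lower right, line at the mean) and in 3H3P (square), with 95% Poisson intervals that cover counting error only. For Angptl2, Thbs1 and Vash2 every subclone lies above 3H3P, and for Vegfb, Vegfc, Pgf, Angpt2 and Angptl4 every subclone lies below it.

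Among the VEGF ligands, Vegfa (ENSMUSG00000023951.17, chromosome 17, 46016993 to 46032369) had the highest TPM in 3H3P and in each subclone but 7, where Vegfb had 41.7 TPM and Vegfa 38.2 TPM. It had 95.5, 97.4, 147, 287, 62.9, 501 and 70.4 CPM in subclones 1, 2, 3, 6, 7, 8 and 9, against 206 CPM in 3H3P. Subclones 8 and 6 lay above 3H3P and the other 5 below it. The mean of the subclones was 180.2 ± 160.9 CPM (SD, n = 7), and the log2 fold change was −0.19 (SE 0.99, adjusted p = 0.910). The highest subclone exceeded the lowest 7.96-fold. Only the neighbours 2 and 1, and 9 and 7, had overlapping 95% Poisson intervals in the order of the subclones.

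Vegfb (ENSMUSG00000024962.13, chromosome 19, 6982473 to 6987651) was the steadiest of the ligands. It ran from 26.7 through a median of 30.7 to 36.5 CPM in the subclones, against 40.6 CPM in 3H3P. Every subclone was below 3H3P, yet the gap was small (log2 fold change −0.37, SE 0.21) and did not pass the test (adjusted p = 0.256). Each pair of neighbours in the order of the subclones overlapped in counting error.

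Vegfc (ENSMUSG00000031520.6, chromosome 8, 54077606 to 54187096), the lymphatic growth factor gene, fell. It had 3.29, 4.74 and 10.2 CPM in the lowest, median and highest subclone, against 17.4 CPM in 3H3P. No subclone reached 3H3P, and subclone 8 was the highest. The log2 fold change was −1.67 (SE 0.47, adjusted p = 0.0379), and 7 of 7 subclones were lower. The call was lost without subclone 1, 3, 6, 7 or 9 (adjusted p = 0.0544, 0.0571, 0.0639, 0.0591 and 0.0576), without a filter on low counts (0.0513) and on log2(TPM + 1) or log2(TPM + 0.1) (0.0971 and 0.112).

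Pgf (ENSMUSG00000004791.7, chromosome 12, 85166635 to 85177790), for placental growth factor, was the least abundant of the 10 genes in the subclones. It had 5 to 27 counts per subclone and 32 counts in 3H3P. This was 0.842 ± 0.503 CPM in the subclones and 1.99 CPM in 3H3P, lower in 7 of 7 subclones without passing the test (log2 fold change −1.23, SE 0.76, adjusted p = 0.283). Its neighbouring subclones all overlapped in counting error.

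Because levels of different genes can be set side by side only per length, the make-up of the VEGF ligand pool was taken from TPM. Vegfd, the remaining ligand gene of the family, was included and had 0.720 to 6.19 TPM in the subclones and 2.67 TPM in 3H3P. Vegfa held 42.9% to 82.5% of the summed ligand TPM in the subclones (mean 60.3% ± 14.8, SD, n = 7) and 62.3% in 3H3P. Vegfb held 33.6% ± 12.5 in the subclones and 28.7% in 3H3P. Vegfc held 1.40% to 5.75% in the subclones and 6.56% in 3H3P, above every subclone. The summed TPM ran from 89.2 in subclone 7 to 384 in subclone 8 and was 197 in 3H3P. The subclones thus differed in the total mainly with Vegfa, since Vegfb stayed between 41.0 and 52.4 TPM in all 7.

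**Figure D2:**
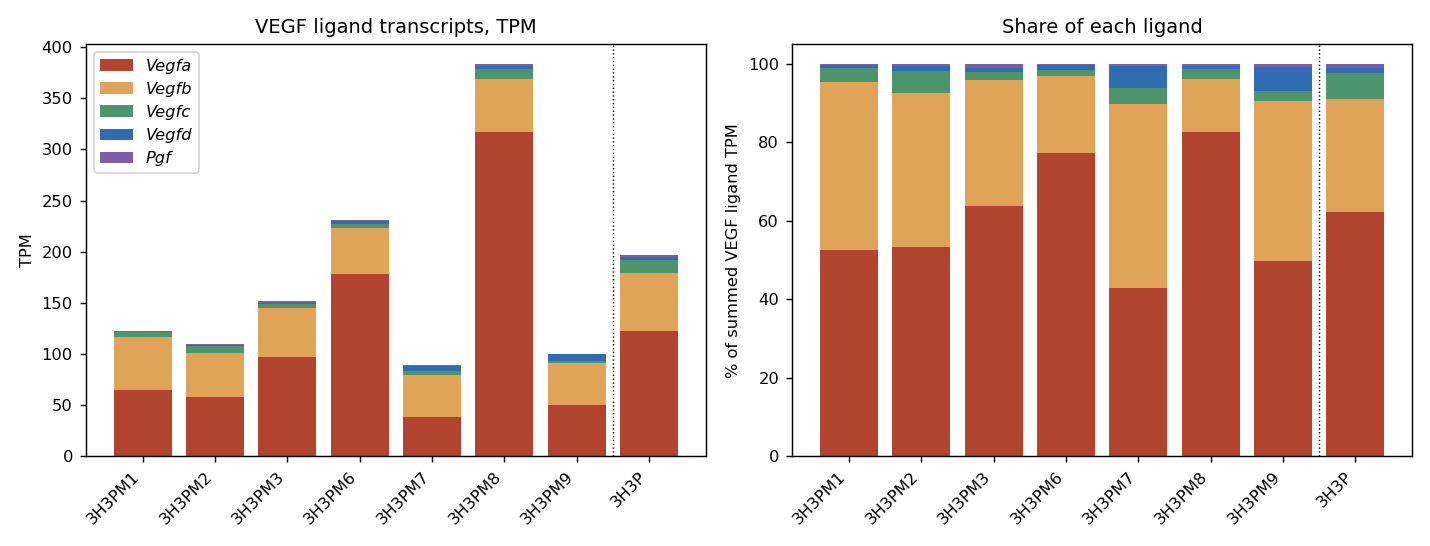
Deposited TPM of the 5 VEGF ligand genes (left, stacked) and their share of the summed TPM in percent (right) in each 3H3PM subclone and, right of the dotted line, in 3H3P. Vegfa makes up 82.5% of the sum in subclone 8 and 42.9% in subclone 7, and Vegfb is nearly level.

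Flt4, encoding VEGFR3, the receptor of VEGF-C, fell in the subclones. It had 30 counts over all 7 subclones (at most 0.623 CPM in any) and 1191 counts in 3H3P (74.1 CPM), or −7.99 on the log2 scale (SE 0.73; adjusted p = 0.000296). It passed the filter on low counts only through 3H3P, so the call follows in part from the filter. Kdr, encoding VEGFR2, had 1 count over all subclones and 0 in 3H3P. Flt1, encoding VEGFR1, was at 11.6 ± 8.09 CPM in the subclones and 11.01 CPM in 3H3P (adjusted p = 0.967). The co-receptor genes Nrp1 and Nrp2 were at 38.2 ± 15.98 and 348 ± 89.6 CPM in the subclones, and at 67.6 and 339 CPM in 3H3P (adjusted p = 0.355 and 0.949). Over the list of the VEGF family and its receptors, 0 of 9 tested genes were higher and 2, Vegfc and Flt4, were lower, against 7.33% and 11.8% of all genes. Of the 4 tested genes for processing of VEGF-C, 1 was higher, against 7.33% of all genes, and 0 were lower, against 11.8%. The higher gene was Adamts14, a protease gene, at 8.54 ± 3.87 CPM in the subclones and 0.684 CPM in 3H3P (adjusted p = 0.0357). It lost this call without subclone 3 or 6 (adjusted p = 0.0547 and 0.0563), by limma-voom (0.164) and on log2(TPM + 1) or log2(TPM + 0.1) (0.0981 and 0.0534). The protease genes Adamts3 and Pcsk5 of this list had 0 counts in every library. Furin and Pcsk7 did not pass the test (adjusted p = 0.562 and 0.585). Ccbe1, the gene of the adaptor that VEGF-C processing needs, was at 1.09 ± 2.07 CPM in the subclones and 14.6 CPM in 3H3P (adjusted p = 0.119, with 0.00263 by DESeq2 and 0.00538 by limma-voom).

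Neither angiopoietin gene passed the test, and both varied widely over the subclones. Angpt1 (ENSMUSG00000022309.9, chromosome 15, 42424723 to 42676977) had 0.592, 0.192, 4.67, 24.9, 42.2, 23.05 and 8.79 CPM in subclones 1, 2, 3, 6, 7, 8 and 9, against 3.86 CPM in 3H3P. Subclones 1 and 2 lay below 3H3P and the other 5 above it. Subclone 2 had 3 counts and subclone 7 had 553, a 220.4-fold range in CPM. The log2 fold change of 1.95 (SE 2.18) did not pass the test (adjusted p = 0.565). Angpt1 had fractional counts of 375.51, 552.56 and 310.6 in subclones 6, 7 and 8. Gm17473, which overlaps it on the opposite strand, had 5.49, 2.44 and 1.4 counts there. The fractional parts of both genes fill up to whole counts, so reads were shared across strands at this locus.

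Angpt2 (ENSMUSG00000031465.6, chromosome 8, 18690263 to 18741562) had 3.43, 2.30, 3.19, 16.2, 6.88, 3.19 and 17.6 CPM in subclones 1, 2, 3, 6, 7, 8 and 9, against 19.8 CPM in 3H3P. Subclones 6 and 9 stood above the rest and came closest to 3H3P. All 7 were lower than 3H3P, but the spread kept the gene short of the threshold (log2 fold change −1.40, SE 0.95, adjusted p = 0.337). Angpt2 overlaps Mcph1 on the opposite strand, and the labels do not state whether counting used strand. Mcph1 was nearly level over the subclones at 53.9 ± 4.78 CPM and was at 33.7 CPM in 3H3P, and it was higher in the subclones (adjusted p = 0.0396).

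The balance of the angiopoietins turned over between subclones. The log2 ratio of Angpt2 to Angpt1, on TPM + 1, was 1.04 and 1.17 in subclones 1 and 2, −0.04 in subclone 3, −0.30 in subclone 6, −2.02 in subclone 7, −1.47 in subclone 8 and 1.06 in subclone 9, against 1.99 in 3H3P. Thus Angpt2 was ahead in 3 subclones and in 3H3P, Angpt1 was ahead in subclones 7 and 8, and the 2 genes were close in subclones 3 and 6. Both genes were under 2 TPM in subclones 1, 2 and 3, so the ratio there rests on low levels. With 0.1 added in place of 1, it was 2.33 and 3.15 in subclones 1 and 2, against 2.55 in 3H3P, and its mean over the subclones was 0.32 in place of −0.08. Of the 3 tested genes of angiopoietins and TIE receptors 0 passed by edgeR, against 19.1% of all genes, with 0 at an unadjusted p under 0.05. By DESeq2 and limma-voom 0 passed, against 21.5% and 21.8% of all genes. The receptor genes were too low to test: Tek, encoding TIE2, had 1 count over all subclones and 0 in 3H3P, and Tie1 had 0 counts in every library, which allows up to 3 counts in each.

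Of the angiopoietin-like pair, Angptl2 rose and Angptl4 did not pass the test. Angptl2 (ENSMUSG00000004105.8, chromosome 2, 33216069 to 33247717), which encodes a secreted factor linked to inflammation, showed the widest gap of the 10 genes. It had 4200, 2199, 2863, 1395, 1087, 990 and 1557 counts in subclones 1, 2, 3, 6, 7, 8 and 9, and 4 counts in 3H3P. In CPM it ran from 73.4 through 108 to 249 in the subclones, against 0.249 in 3H3P. The groups did not overlap. The log2 fold change was 8.97 (SE 1.14, adjusted p = 0.00116, with 0.0486 by limma-voom and 3.85e-20 by DESeq2), higher in 7 of 7 subclones. The ratio of the summed counts was 537, with a 95% counting interval of 209.8 to 1972. Ralgps1, which overlaps it on the opposite strand, went the other way, at 3.99 ± 1.09 CPM in the subclones and 22.4 CPM in 3H3P (adjusted p = 0.00224).

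Angptl4 (ENSMUSG00000002289.16, chromosome 17, 33773750 to 33781830) encodes an inhibitor of lipoprotein lipase that responds to fasting and low oxygen. It had 3.08, 3.00, 1.37, 1.26, 8.86, 0.593 and 7.68 CPM in subclones 1, 2, 3, 6, 7, 8 and 9, against 10.6 CPM in 3H3P. Subclones 7 and 9 approached 3H3P and subclone 8, with 8 counts, was farthest from it. All 7 were lower without passing the test (log2 fold change −1.53, SE 1.04, adjusted p = 0.333). Lpl, encoding the lipase itself, had 0 counts in every subclone and 69 in 3H3P, at least 153-fold lower in the subclones against a floor of 3 counts over the group (adjusted p = 0.0176). Lpl passed the filter on low counts only through 3H3P, and it was not tested at a mean of 1 CPM or more, on log2(TPM + 1) or on log2(TPM + 0.1). Of the other angiopoietin-like genes, Angptl6 and Angptl8 were tested and did not pass. Angptl1 and Angptl7 had at most 4 counts over the subclones and at most 2 in 3H3P.

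Thbs1 (ENSMUSG00000040152.8, chromosome 2, 118111876 to 118127133), encoding thrombospondin 1, rose and was the most abundant of the 10 genes in the subclones. It had 876, 1052 and 1511 CPM in the lowest, median and highest subclone, against 204 CPM in 3H3P. All subclones were far above 3H3P and lay within 1.72-fold of each other. The log2 fold change was 2.45 (SE 0.36, adjusted p = 0.00232), a 5.48-fold difference seen in 7 of 7 subclones, and it was called under all 15 alternatives (adjusted p at most 0.00565). Its receptor gene Cd47, whose product also restrains phagocytosis, fell: it was at 95.5 ± 20.7 CPM in the subclones and 390 CPM in 3H3P (log2 fold change −2.03, adjusted p = 0.00104). Cd36, another receptor gene, had 4 counts over all subclones, all in subclone 2, and 11 in 3H3P (adjusted p = 0.0826). It passed the filter on low counts only through 3H3P. Of 9 tested receptors and partners of thrombospondin, 0 were higher, against 7.33% of all genes, and 3 were lower, against 11.8%. Besides Cd47 these were the integrin gene Itga3 and the syndecan gene Sdc1, at −1.17 and −0.69 on the log2 scale (adjusted p = 0.0311 and 0.0114). Itga3 lost its call without subclone 2, 3 or 6 (adjusted p = 0.0524, 0.0518 and 0.0535) and on log2(TPM + 1) or log2(TPM + 0.1) (0.0772 and 0.0791).

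Vash2 (ENSMUSG00000037568.12, chromosome 1, 190947646 to 190979296) encodes vasohibin 2, which together with its partner SVBP removes the terminal tyrosine of tubulin. It had 35.4, 41.7 and 48.9 CPM in the lowest, median and highest subclone, against 8.96 CPM in 3H3P. The groups did not overlap, and each pair of neighbouring subclones overlapped in counting error. The log2 fold change was 2.21 (SE 0.27, adjusted p = 0.00103), a 4.63-fold difference seen in 7 of 7 subclones and called under all 15 alternatives. Its paralogue Vash1 had 0 counts in every subclone and 9 in 3H3P and was not tested. Svbp was at 8.89 ± 1.33 CPM in the subclones and 6.16 CPM in 3H3P (adjusted p = 0.284), and Ttl, the ligase that puts the tyrosine back, was at 37.2 ± 4.57 CPM in the subclones and 24.6 CPM in 3H3P (adjusted p = 0.104).

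**Figure D3:**
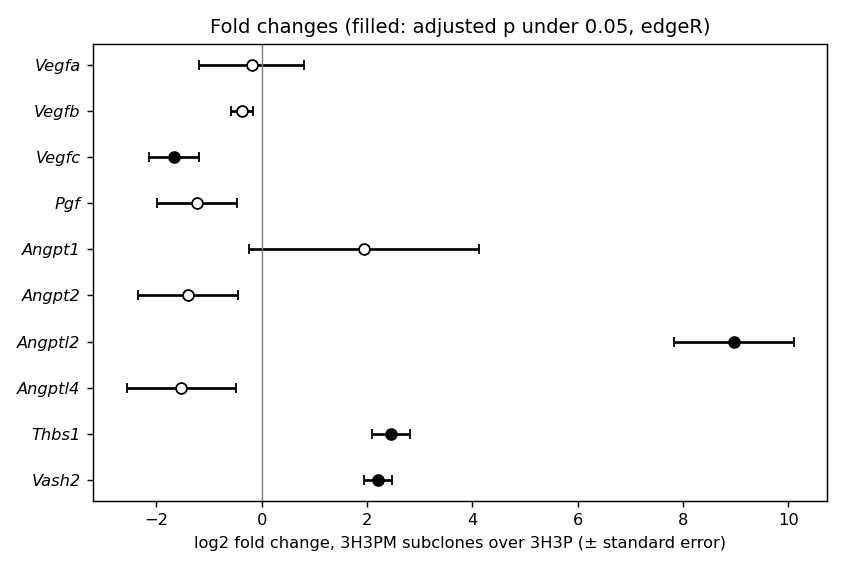
Log2 fold change of each gene, 3H3PM subclones over 3H3P, with its standard error (n = 7 and 1), filled where the adjusted p is under 0.05 by edgeR. Angptl2 (8.97), Thbs1 (2.45) and Vash2 (2.21) are higher and Vegfc (−1.67) is lower, and Angpt1 has the widest error (2.18).

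Ranked per length, the order of the 10 genes also differed between the groups. In the subclones Thbs1 came first at 290 ± 67.5 TPM, followed by Vegfa at 115 ± 100.7 TPM, Angptl2 at 60.7 ± 28.9 TPM, Vegfb at 46.3 ± 4.84 TPM and Vash2 at 17.6 ± 2.95 TPM. In this order only the neighbours Vegfb and Vash2 had ranges over the subclones that did not overlap. Angpt1, Vegfc, Angpt2, Angptl4 and Pgf followed at 5.34, 4.67, 3.49, 2.52 and 0.973 TPM. In 3H3P Vegfa came first at 123 TPM, Vegfb was at 56.5 TPM and Thbs1 at 49.6 TPM, and Angptl2 came last at 0.110 TPM.

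The 10 genes fell apart in how much they varied over the subclones. The SD of log2 CPM over the 7 subclones was 2.69 for Angpt1, 1.34 for Angptl4, 1.17 for Angpt2 and 1.11 for Vegfa. Among 12151 genes with a mean of 1 CPM or more over the subclones, only 6.70% had an SD above 1, and the median was 0.28. The SD of Angpt1 exceeded that of 99.8% of these genes, and that of Vegfa exceeded 94.6%. Vash2 (0.19), Vegfb (0.18) and Thbs1 (0.31) lay near or below the median, and Angptl2 (0.61) and Vegfc (0.52) above it. Without subclone 8 the SD of Vegfc was 0.33. Pgf, under the minimum of 1 CPM, was not ranked.

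The high and low subclones were not the same for each gene. Subclone 8 was the highest for Vegfa, Vegfb, Vegfc and Pgf and the lowest for Angptl2 and Angptl4. Subclone 7 was the highest for Angpt1, Angptl4, Thbs1 and Vash2 and the lowest for Vegfa and Pgf. Subclone 2 was the lowest for Angpt1, Angpt2, Thbs1 and Vash2. Each subclone is a single library, so these orders carry no test. For Vegfb, Pgf and Vash2, neighbours in the order overlapped throughout.

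**Figure D4:**
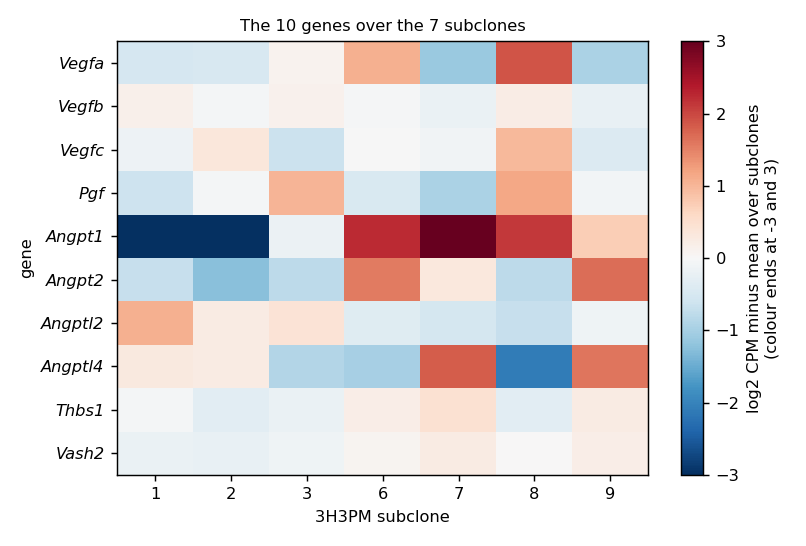
Log2 CPM of each gene minus its mean over the 7 3H3PM subclones, in colour. Angpt1 runs from 0.192 CPM in subclone 2 to 42.2 CPM in subclone 7, Vegfa peaks in subclones 6 and 8 where Angptl4 is low, and Vash2, Vegfb and Thbs1 are pale.

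Il11, the cytokine of the series title, was also highest in subclones 8 and 6, at 31.1 and 15.2 CPM, and at 0.831 to 3.51 CPM in the other subclones, against 0.124 CPM in 3H3P. Vegfa had its highest values, 501 and 287 CPM, in the same 2 subclones. Vegfa and Angptl4 are both known to respond to low oxygen, and a list of hypoxia-responsive genes was therefore followed over the subclones. Both genes are on this list, and the count of highest values was chosen after values were seen. Of 27 hypoxia-responsive genes with a mean of 1 CPM or more, 21 had their highest value in subclone 8, where 21.6% of all 12151 genes did so. They included Vegfa, the glucose transporter gene Slc2a1 (165 CPM in subclone 8 and 47.1 to 119 CPM in the others), the mitophagy gene Bnip3 (396 CPM, against 53.0 to 281 CPM), the oxygen sensor gene Egln3 (166 CPM, against 8.63 to 132 CPM) and the stress gene Ddit4 (418 CPM, against 31.9 to 226 CPM). Subclone 9 was the lowest for 11 of the 27 (40.7%, against 11.8% of all genes) and subclone 7 for 8, Vegfa among them (29.6%, against 14.0%). Subclone 1 was the lowest for 6 (22.2%, against 19.9%). Angptl4 and the lysyl oxidase gene Lox had their lowest value in subclone 8. In the comparison with 3H3P, 1 of 28 tested hypoxia-responsive genes was higher, against 7.33% of all genes, and 0 were lower, against 11.8%. The higher gene was Mxi1, which encodes a MYC antagonist, with a log2 fold change of 1.89 (adjusted p = 0.0389). DESeq2 called 3 of the 28, against 21.5% of all genes. The call of Mxi1 was lost without subclone 3 or 6 (adjusted p = 0.0641 and 0.0584). Of 10 tested hypoxia regulators 0 passed by edgeR, against 19.1% of all genes, with 2 at an unadjusted p under 0.05. DESeq2 called 1 of them and limma-voom 0, against 21.5% and 21.8% of all genes. Hif1a was at 207 ± 96.8 CPM in the subclones and 348 CPM in 3H3P (adjusted p = 0.325), and Epas1, encoding HIF-2α, at 68.1 ± 61.6 CPM in the subclones and 1.31 CPM in 3H3P (adjusted p = 0.0637, with 0.000588 by DESeq2 and 0.312 by limma-voom).

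**Figure D5:**
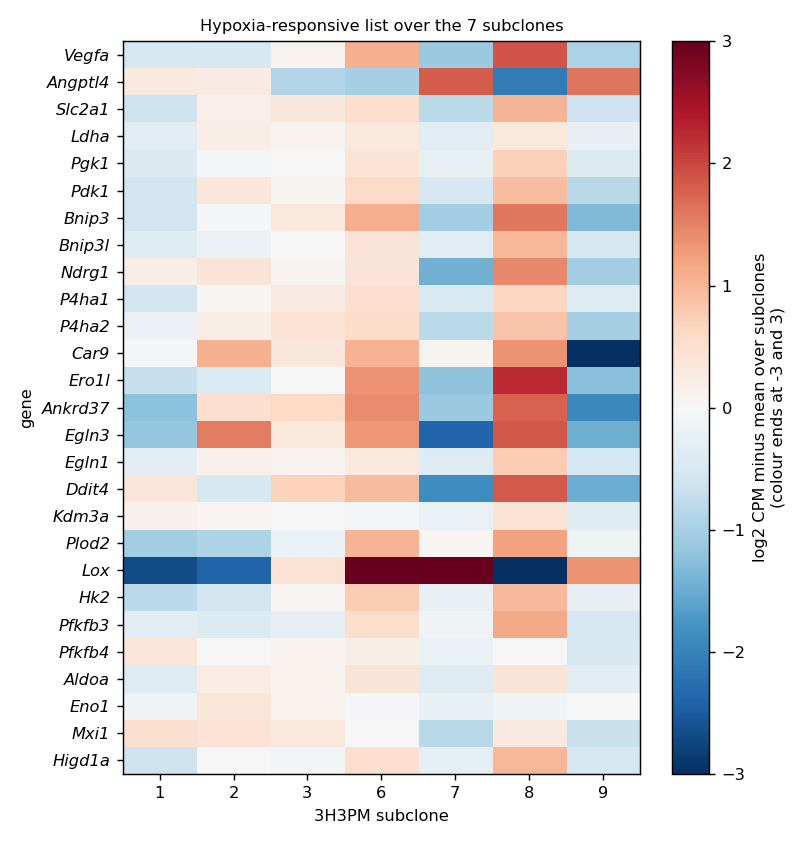
Log2 CPM minus the mean over the 7 3H3PM subclones, in colour, for the 27 genes of the hypoxia-responsive list with a mean of 1 CPM or more. Subclone 8 holds the highest value for 21 of them, and Angptl4 and Lox are the 2 that are lowest there.

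The genes most like each of the 3 most variable members over the subclones were sought among 12142 other genes by the root mean square difference of centred log2 CPM. For Angpt1 these were Podnl1 (0.72), the collagen chaperone gene Fkbp10 (0.82) and Tnip3 (0.85). Fkbp10 had 76.2 CPM in subclone 7, the highest also for Angpt1, and 1.34 CPM in subclone 2, the lowest also for Angpt1. For Angptl4 they were Sema3e (0.26), which encodes a semaphorin, Shank2 (0.39) and Smpd3 (0.44). Sema3e had 87.8 CPM in subclone 7 and 5.26 CPM in subclone 8, its extremes as for Angptl4. For Angpt2 they were the oncofetal gene Afp (0.42), Paqr8 (0.46) and Mb21d2 (0.48). Some of these genes were near the floor in a subclone. Tnip3 had 0.296 CPM in subclone 1, Shank2 0.199 CPM in subclone 6, Smpd3 0.296 CPM in subclone 8 and Afp 0.319 CPM in subclone 2. Their likeness therefore rests in part on low counts. For Vegfa, added after its values were seen, they were Sync (0.17), the early response gene Ier3 (0.19) and Ero1l (0.23), which encodes an oxidase of the endoplasmic reticulum and is in the hypoxia-responsive list. Ero1l had 1463 CPM in subclone 8 and 798 CPM in subclone 6, and 131 to 307 CPM in the others.

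Other ligands and inhibitors of angiogenesis, were listed by function. Of 21 tested other angiogenic ligands 5 were higher in the subclones, against 7.33% of all genes, and 3 were lower, which is near the 11.8% of all genes (median log2 fold change −0.42). Igf2 rose, at 985 ± 271 CPM in the subclones and 184 CPM in 3H3P (adjusted p = 0.00869). Ptn, also among the 5, had 70 counts over all subclones and 0 in 3H3P (adjusted p = 0.0429 by edgeR and 0.107 by limma-voom). It passed the filter on low counts only through the subclones, so its call follows in part from the filter. Cxcl12, another of the 5, was at 312 ± 164 CPM in the subclones and 41.7 CPM in 3H3P (adjusted p = 0.0433). Its adjusted p reached 0.0654 when 1 subclone was left out. Tgfa, encoding an EGF receptor ligand, fell by 3.38 on the log2 scale (adjusted p = 0.0107), as did Pdgfb by 0.94 (adjusted p = 0.0163). Pdgfd had 5 counts over all subclones and 389 in 3H3P (adjusted p = 0.000355), and it too passed the filter only through 3H3P. The inhibitor list held Thbs1 and also Vash2, although vasohibin 2 has been described as promoting angiogenesis. Of its 15 other tested genes, 1 was higher, against 7.33% of all genes, and 3 were lower, against 11.8%. The gene that rose was Thbs3, at 50.1 to 158 CPM in the subclones and 20.8 CPM in 3H3P (adjusted p = 0.0233). Timp2 fell by 1.27 on the log2 scale (adjusted p = 0.00140), Col18a1, whose product is cleaved to endostatin, by 2.96 (adjusted p = 0.0151) and Col4a1 by 2.12 (adjusted p = 0.0311). Col4a1 lost its call without subclone 6 (adjusted p = 0.0503) and on log2(TPM + 1) or log2(TPM + 0.1) (0.0546 and 0.0644).

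Among genes around the angiopoietin-like proteins, those that passed the test were lower. Of 6 tested targets and receptors of these proteins 0 were higher and 3 were lower, against 7.33% and 11.8% of all genes. Besides Lpl these were the integrin genes Itgav and Itgb1, with log2 fold changes of −1.12 and −0.46 (adjusted p = 0.0311 and 0.0438). Itgav lost its call without subclone 9 (adjusted p = 0.0514) and on log2(TPM + 1) or log2(TPM + 0.1) (0.138 and 0.141). Itgb1 lost its call without subclone 2, 3, 6, 7, 8 or 9 (adjusted p = 0.0537 to 0.0767), with library size alone (0.0920), without a filter on low counts (0.128) and on log2(TPM + 1) or log2(TPM + 0.1) (0.0722 and 0.0706). Of 14 tested genes of the PPAR-responsive list, Angptl4 among them, 0 were higher, against 7.33% of all genes. On this list 6 were lower, against 11.8%, and the median log2 fold change was −1.34, against 0.03 over all genes. The list also holds the regulator genes Ppard, Pparg and Ppargc1a, and Pparg and Ppargc1a were among the 6. The adjusted p of Plin4 and Ppargc1a, both called lower, reached 0.0725 and 0.0743 under other settings. Plin2, which coats lipid droplets, was at 50.2 ± 5.37 CPM in the subclones and 147 CPM in 3H3P (adjusted p = 0.000607). Cpt1a, of fatty acid oxidation, fell by 2.89 on the log2 scale (adjusted p = 0.000904), and the receptor gene Pparg fell by 2.82 (adjusted p = 0.0234, with 0.0892 on log2(TPM + 0.1)). The summed level of the hepatocyte markers, given above, was lower in the subclones beside these genes, and its part in the result was not tested.

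The deposited transcript length, a mean weighted by the estimated share of each isoform, was compared for the 5 genes with at least 50 counts in every library. For Vegfa it was 2322 to 2670 bases in the subclones and 2525 in 3H3P, within their range. Vegfb (1192 to 1223 bases in the subclones, 1217 in 3H3P) barely moved. Vash2 ran from 2893 bases in subclone 3 to 3921 in subclone 2 and was 3172 in 3H3P. Vegfc ran from 1593 bases in subclone 3 to 2449, the length of its longest annotated transcript, in subclones 6 and 9, and was 2071 in 3H3P. Only Thbs1 lay outside the range of the subclones, which was 5732 to 5818 bases, with 5848 in 3H3P.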

How the data were processed

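RNA-seq of 8 libraries was analysed from the deposited gene-level files. Per the labels' protocols, total RNA was extracted with TRIzol, had a RIN above 7 and was made into libraries with a directional NEBNext Ultra kit. The submitters' processing notes list the tools RSEM, STAR, FastQC and DESeq2 and the build GRCm38 (mm10), without versions, strand setting or annotation release. Per the file headers, the deposited columns are an expected count, a TPM and a length per gene. In RSEM's output the expected count is an estimate that splits ambiguous reads, the deposited TPM is scaled for length and library, and the deposited length is the abundance-weighted transcript length. Positions are from GENCODE vM21 of GRCm38, matched by identifier.

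Expected counts were rounded. The quasi-likelihood F test of edgeR 4.0.16, run in R 4.3.3, followed filterByExpr and TMM scaling, with Benjamini-Hochberg adjustment over all 14634 genes tested and a threshold of 0.05. All 8 libraries entered the fit, and the spread came from the 7 subclones (6 residual degrees of freedom). The standard error is the log2 fold change over the square root of F. Each subclone is its own isolate, with 1 library, and p-values therefore reflect variation from isolate to isolate. Spread over the subclones is the SD of log2 CPM with a prior count of 2. Intervals are exact 95% Poisson or binomial (Clopper-Pearson) intervals, and together with floors they cover counting error only. Alternatives were 15 other settings, among them limma 3.58.1 and DESeq2 1.42.0, and the fold change minus its chromosome's median. The fit was tested on simulated data.

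The 10 genes and the lists (12 of function, 5 of markers) were chosen with earlier results of these data known. Named genes were the 10, Trp53, Myc, Il11, receptors of the 10 and up to 4 called genes of each list with the smallest p. Genes named for their level over the subclones, beside those or for a limit of their call were chosen after values were seen. The count of highest values in the hypoxia list was also chosen after values were seen. Older symbols were matched through RefSeq's synonyms, and 3 names of the lists (Thbs5, Matcap1 and Matcap) matched no gene. Single values of some list genes are not reported here. Promoter windows are from RefSeq, GRCm38.p6.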

Additional observations from a re-analysis of the deposited data

How the results depend on the processing

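No paired analysis was possible because 3H3P had 1 library. Under every alternative that gave a value, each of the 10 genes kept the sign of its log2 fold change. Angptl2, Thbs1 and Vash2 were called under all 15 of them, and Vegfa, Vegfb, Angpt1, Angpt2 and Angptl4 under none of 15, as was Pgf under none of the 14 that tested it. Vegfc had log2 fold changes of −1.57 on log2(TPM + 0.1), −1.38 on log2(TPM + 1) and −1.63 without a filter, where its call was lost, and −1.87 to −1.57 without 1 subclone. With the chromosome median subtracted Vegfb moved to −0.0012, since the median of chromosome 19 was −0.37. The mean share of Vegfb in the VEGF ligand sum was 19.0% from CPM in place of TPM, which leaves out gene length. The number of the 10 called was 3 or 4 throughout, that of all genes 1991 to 3302, and that of the function lists 21 to 36 over all settings. Without subclone 8 the SD of Vegfa fell to 0.80 and its log2 fold change was −0.69, and the cause was not tested. Depth limits Pgf, Angpt1 and Angptl4, which had under 10 counts in some subclones.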
